A study of Mus musculus with 6 samples.

Results

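Disease-associated microglia (DAM) genes other than Apoe were examined in microglia, brain-resident macrophages, after depletion of natural killer (NK) cells in an Alzheimer's disease model. The set holds 10 genes, chosen by symbol from the 24956 gene rows of the count table: Cst7, Itgax, Spp1, Clec7a, Lgals3, Gpnmb, Lpl, Cd9, Cd63 and Igf1. All 10 had a row, and all 10 were among the 14520 genes with enough reads to be tested. RNA was sequenced in bulk from microglia sorted out of 7 month old 3xTg-AD mice that had received 25 µg of antibody every 4 days over 4 weeks. The antibody was an isotype control in 3 libraries and anti-NK1.1, which depletes cells carrying the NK1.1 receptor, in the other 3. Mice of both groups carried the same disease alleles, among them human APP and MAPT transgenes driven in neurons by the Thy1 promoter. No healthy strain was analysed here. NK1.1 is also carried by NKT cells, so the antibody is not restricted to NK cells. The labels do not say whether a library came from 1 mouse or from a pool. The p-values therefore rest on the spread between libraries, and not necessarily on that between mice.

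Microglia near amyloid plaques are known to leave their resting programme and to take on the DAM state, in which genes of phagocytosis, lysosomes and lipid handling are raised while resting genes such as P2ry12 and Tmem119 are lowered. Part of this shift depends on the lipid-sensing receptor Trem2 and its adaptor Tyrobp. The 10 genes span its main functions: the surface receptors Clec7a and Itgax, the tetraspanins Cd9 and Cd63, the endolysosomal genes Cst7 and Gpnmb, the lipase Lpl, and the secreted proteins Spp1, Igf1 and Lgals3.

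The 10 genes did not move as a block after anti-NK1.1, and none passed the threshold. Of the 10, 6 had a positive and 4 a negative log2 change (anti-NK1.1 against isotype), with a median of 0.24. Over all tested genes, 50.9% had a positive change and the median was 0.01. The quasi-likelihood test of edgeR called 0 of the 10 at an adjusted p under 0.05, where it called 0 of 14520 genes (0%). At an unadjusted p under 0.05 there was 1 of 10, Clec7a, against 6.54% of all tested genes. DESeq2 and limma-voom with sample weights also called 0 of the 10. DESeq2 called 0.574% of the genes it tested. In 2 of the 10 genes the groups did not overlap, against 15.3% of all tested genes. Every anti-NK1.1 library exceeded every isotype library for Cst7, as for 7.73% of all tested genes, and every one lay below for Clec7a, as for 7.59%.

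**Figure D1:**
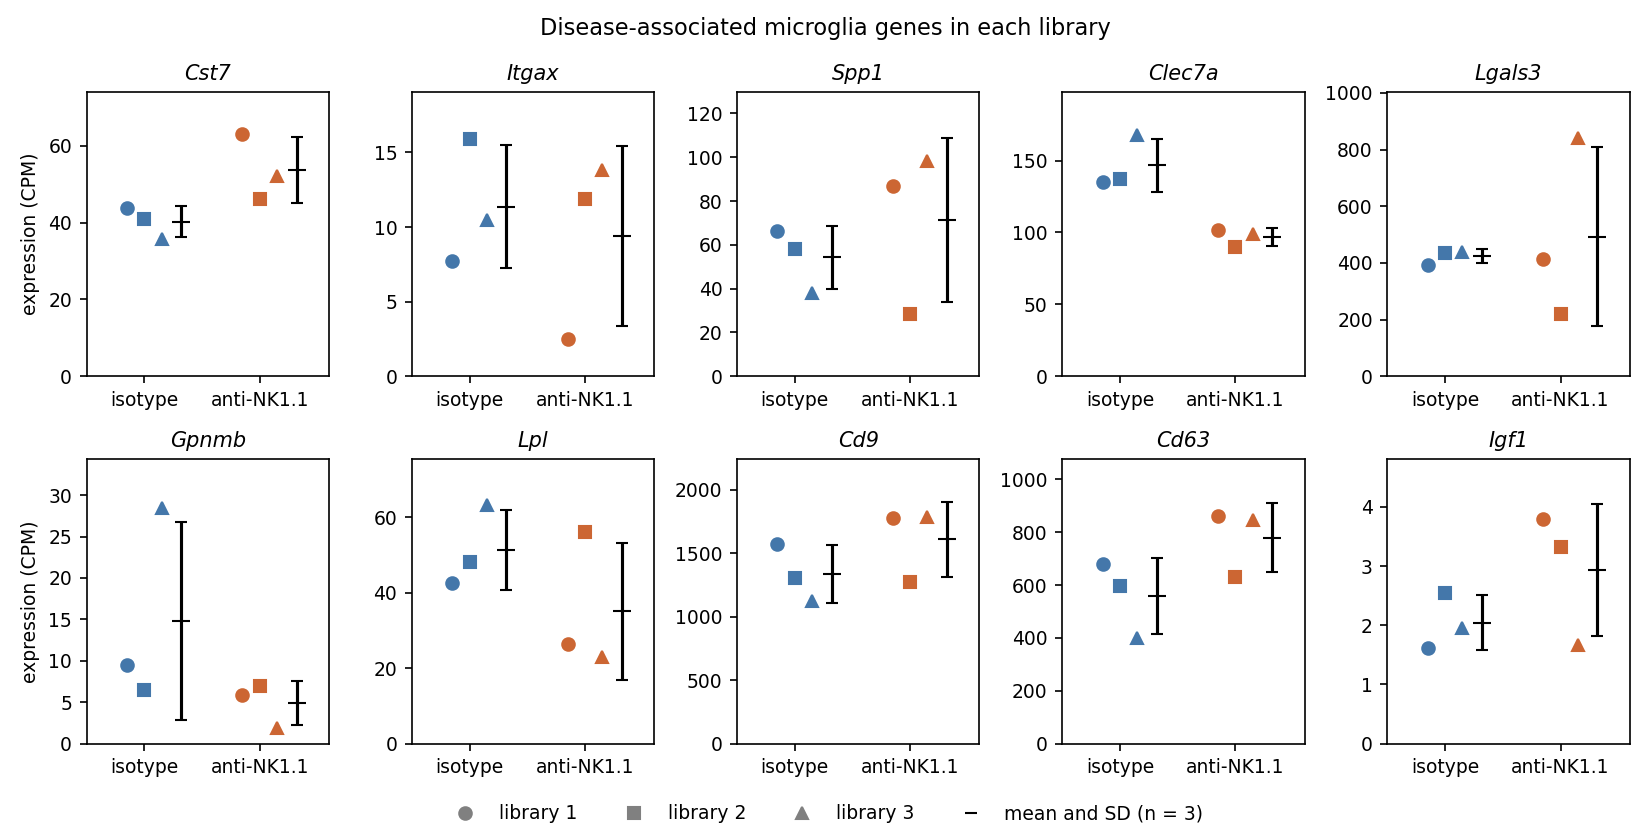
Expression of the 10 genes in CPM (TMM-scaled read counts, linear axes from 0) for the isotype (blue) and anti-NK1.1 (orange) libraries, with symbols for library number and black bars for the mean and SD of 3 libraries. The groups separate for Cst7, with anti-NK1.1 libraries above, and for Clec7a, with anti-NK1.1 libraries below, and overlap for the other 8 genes.

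The libraries held 26.9 M to 36.1 M gene counts, with microglial and also many neutrophil transcripts. The 16 identity and homeostatic genes, none of them at 0 in either group, summed to 41669 to 47194 CPM (read counts scaled to a common library total) in isotype and 38239 to 47848 CPM in anti-NK1.1 libraries. These were 4.17% to 4.72% of the TMM-scaled total in isotype and 3.82% to 4.78% in anti-NK1.1 libraries. The 13 neutrophil genes took more, 7.55% to 10.3%, in every isotype library and 14.3% in anti-NK1.1 3, and less, 3.28% and 3.35%, in anti-NK1.1 1 and 2. Klrb1c, which encodes NK1.1, had a mean of 1.63 ± 0.401 CPM with isotype and of 0.173 ± 0.299 CPM with anti-NK1.1 (SD, n = 3 each). Its counts were 50, 45 and 80 in isotype 1 to 3 and 0, 0 and 13 in anti-NK1.1 1 to 3. The log2 change of Klrb1c was -3.23 ± 1.82 (SE, 95% interval -7.30 to 0.85, edgeR adjusted p = 0.743). Within each group, libraries also differed in how strongly long transcripts were represented.

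Per kilobase of transcript, the 10 genes covered a wide range of levels, and their order was much the same in both groups. In isotype libraries Cd9 was highest at 1088 ± 183 CPM per kilobase, followed by Cd63 at 503 ± 130 and Lgals3 at 298 ± 17.5 (SD, n = 3). A middle tier held Clec7a at 64.4 ± 7.96, Cst7 at 40.8 ± 4.19 and Spp1 at 36.0 ± 9.61 CPM per kilobase, of which Cst7 and Spp1 did not differ beyond their spread. Lpl followed at 12.5 ± 2.60, then Gpnmb at 4.01 ± 3.22 and Itgax at 2.81 ± 1.03 CPM per kilobase, a pair that also lay within its spread. Igf1 was lowest at 0.289 ± 0.0663. In anti-NK1.1 libraries the middle tier was Cst7 at 54.5 ± 8.68, Spp1 at 47.4 ± 24.9 and Clec7a at 42.6 ± 2.72 CPM per kilobase, so by mean Clec7a went from the first to the last place of the 3. Gpnmb (1.34 ± 0.715) and Itgax (2.33 ± 1.50) also changed places there, within their spread. Cd9, Cd63 and Lgals3 together made up 85.0% to 92.3% of the CPM of all 10 genes, so a summed score of the set mostly reads these 3.

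**Figure D2:**
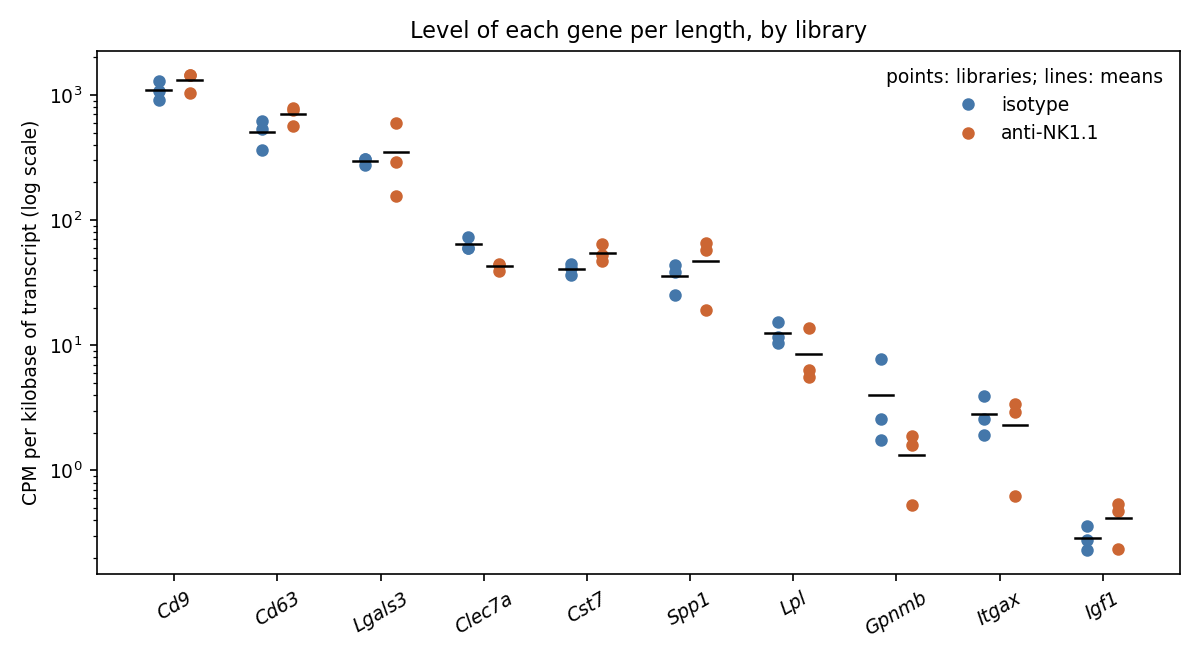
Level of each gene in CPM per kilobase of its longest annotated transcript (log axis), with 1 point per library and a line at each group mean, isotype in blue and anti-NK1.1 in orange. Genes are ordered by the isotype mean, from Cd9 at 1088 to Igf1 at 0.289.

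Clec7a, the gene of the beta-glucan receptor dectin-1 (chromosome 6, 129461591 to 129472779, minus strand, GRCm38, listed by GENCODE as a polymorphic pseudogene), gave the most even separation of the groups. It had 135, 137 and 168 CPM in isotype 1 to 3 and 102, 90.0 and 98.9 CPM in anti-NK1.1 1 to 3. All 3 anti-NK1.1 libraries thus lay below the lowest isotype library. The mean went from 147 ± 18.1 to 97.0 ± 6.18 CPM (SD, n = 3 each), a log2 change of -0.60 ± 0.21 (SE) with a 95% interval of -1.07 to -0.12. The unadjusted p was 0.0193 and edgeR's adjusted p over all tested genes 0.727. The log2 change lay between -0.65 and -0.49 with any 1 library left out, and was -0.23 when each library was corrected for transcript length and GC content.

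Cst7, which encodes cystatin F, an inhibitor of lysosomal cysteine proteases (chromosome 2, 150570415 to 150578944, plus strand), separated the other way. It had 43.9, 41.0 and 35.8 CPM in isotype 1 to 3 and 63.0, 46.1 and 52.2 CPM in anti-NK1.1 1 to 3. The groups did not overlap, but the lowest anti-NK1.1 library stood just above the highest isotype library. The means were 40.2 ± 4.13 and 53.8 ± 8.56 CPM, and the log2 change was 0.42 ± 0.26 (95% interval -0.17 to 1.00, edgeR adjusted p = 0.748). The change stayed positive in all 16 alternative settings, between 0.20 and 0.52.

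The promoters of Clec7a and Cst7 are shown because these are the genes whose groups separated, in opposite directions. Each is the 250 bases before a RefSeq start (GRCm38.p6), 5′ to 3′ in the direction of the gene, at chr6:129472780-129473029 (minus strand) and chr2:150570165-150570414 (plus strand). Capitals mark exact matches to GAGGAA, a core of sites for PU.1, a transcription factor that microglia need. Other forms of the site were not searched.
Clec7a: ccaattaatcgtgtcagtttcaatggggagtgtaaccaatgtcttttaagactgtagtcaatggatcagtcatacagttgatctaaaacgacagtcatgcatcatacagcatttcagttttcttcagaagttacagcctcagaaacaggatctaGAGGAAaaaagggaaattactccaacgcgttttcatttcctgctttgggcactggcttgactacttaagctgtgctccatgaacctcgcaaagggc
Cst7: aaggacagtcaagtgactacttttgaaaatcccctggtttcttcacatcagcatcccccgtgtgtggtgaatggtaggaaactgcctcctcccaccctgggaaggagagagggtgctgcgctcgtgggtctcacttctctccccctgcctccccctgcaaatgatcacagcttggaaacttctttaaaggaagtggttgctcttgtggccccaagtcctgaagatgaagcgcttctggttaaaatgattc
The Clec7a window holds 1 such core, which starts 96 bases before the gene's start, and the Cst7 window holds none. Searched on both strands, GAGGAA occurred in 4 of the 9 genes with a window (Clec7a, Spp1, Cd63 and Igf1), against 23.3% of all 32851 windows of this length. The E-box CACGTG, read by the lysosomal regulators of the MiT/TFE family, was in 0 of the 9 (6.0% of all windows), and the AP-1 motif TGANTCA in 2, Itgax and Igf1 (6.7% of all windows). The 9 genes had 11 windows, and a gene was counted if any of its windows held the motif. The shares over all windows are per window, so counts and shares are not in the same unit. These matches are a description of the letters in the windows.

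Itgax, the integrin alpha chain CD11c (chromosome 7, 128129547 to 128150657, plus strand), was low and did not separate the groups. It had 7.73, 15.9 and 10.5 CPM in isotype 1 to 3 and 2.52, 11.9 and 13.8 CPM in anti-NK1.1 1 to 3. Only anti-NK1.1 1, with 67 counts, stood below all isotype libraries. The log2 change was -0.27 ± 0.64 (95% interval -1.71 to 1.17, edgeR adjusted p = 0.928), and it was 0.18 without anti-NK1.1 1 and 0.05 without isotype 2. Dendritic cells and NK cells also carry CD11c. The 9 dendritic cell genes, of which 7 were tested (5 higher, 2 lower) and none was at 0, summed to 52.4 to 60.6 CPM with isotype and 91.5 to 114 CPM with anti-NK1.1. The 10 NK cell genes, of which 8 were tested (1 higher, 7 lower), summed to 88.7 to 133 and 38.3 to 76.8 CPM, with Klra8 at 0 in all libraries and Ncr1 at 0 in the anti-NK1.1 group. The part of these cells in the Itgax values was not tested. In bulk RNA, fewer cells of a type and less RNA per cell cannot be told apart.

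The tetraspanins Cd9 and Cd63, membrane organisers of the cell surface and of late endosomes, were the most abundant genes of the set and behaved alike across libraries. Cd9 (chromosome 6, 125460266 to 125494791, minus strand) had 1574, 1307 and 1126 CPM in isotype 1 to 3 and 1779, 1270 and 1783 CPM in anti-NK1.1 1 to 3. Cd63 (chromosome 10, 128900989 to 128912822, plus strand) had 680, 595 and 399 CPM with isotype and 863, 630 and 846 CPM with anti-NK1.1. For both genes anti-NK1.1 1 and 3 were the highest of the 6 libraries, isotype 3 was the lowest, and anti-NK1.1 2 lay among the isotype libraries. The log2 change was 0.27 ± 0.22 for Cd9 (95% interval -0.23 to 0.77, edgeR adjusted p = 0.785). It was 0.48 ± 0.25 for Cd63 (95% interval -0.08 to 1.05, edgeR adjusted p = 0.743). Oligodendrocytes also express Cd9, and the 10 genes of the oligodendrocyte lineage, all tested, all higher and none at 0, summed to 301 to 407 CPM with isotype and 773 to 915 CPM with anti-NK1.1. Their part in the Cd9 values was not tested.

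Gpnmb, a transmembrane glycoprotein of lysosomes and phagosomes (chromosome 6, 49036546 to 49070929, plus strand), had the log2 change of the 10 that was farthest from 0, and its size moved with single libraries. It had 9.51, 6.51 and 28.5 CPM in isotype 1 to 3 and 5.91, 6.98 and 1.95 CPM in anti-NK1.1 1 to 3, from 49 to 1090 counts. Isotype 3 was far above the rest and anti-NK1.1 3 below, while the other 4 libraries overlapped. The log2 change was -1.58 ± 0.71 (95% interval -3.17 to 0.00, unadjusted p = 0.0502, edgeR adjusted p = 0.743). Without isotype 3 it was -0.70, and without anti-NK1.1 3 it was -1.20. Among all tested genes, 3.0% had a lower log2 change.

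Lpl, the lipoprotein lipase that releases fatty acids from lipoproteins (chromosome 8, 68880491 to 68907448, plus strand), split the anti-NK1.1 libraries. It had 42.5, 48.3 and 63.2 CPM in isotype libraries and 26.3, 56.0 and 22.9 CPM in anti-NK1.1 1 to 3. Anti-NK1.1 1 and 3 lay below all isotype libraries and anti-NK1.1 2 lay within their range. The log2 change was -0.55 ± 0.38 (95% interval -1.40 to 0.31, edgeR adjusted p = 0.762). It was -1.06 without anti-NK1.1 2 and 0.13 without both anti-NK1.1 1 and 3.

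Of the secreted proteins, Spp1 and Lgals3 varied most within the anti-NK1.1 group. Spp1, the phosphoprotein osteopontin (chromosome 5, 104435118 to 104441050, plus strand), had 66.3, 58.3 and 38.2 CPM in isotype 1 to 3 and 87.0, 28.6 and 98.5 CPM in anti-NK1.1 1 to 3. Lgals3, the sugar-binding galectin-3 (chromosome 14, 47367751 to 47386160, plus strand), had 394, 435 and 439 CPM with isotype and 415, 221 and 839 CPM with anti-NK1.1. For both genes the highest and the lowest of all 6 libraries were anti-NK1.1 libraries, number 3 and number 2. The log2 change was 0.39 ± 0.43 for Spp1 (95% interval -0.58 to 1.37, edgeR adjusted p = 0.838) and 0.22 ± 0.40 for Lgals3 (95% interval -0.68 to 1.12, edgeR adjusted p = 0.900). Without anti-NK1.1 3 the change of Lgals3 was -0.41 and that of Spp1 0.09. Without isotype 3 the change of Spp1 was 0.19.

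Lgals3 is also a gene of monocytes and neutrophils, and their transcripts moved with it in anti-NK1.1 3. The 13 neutrophil genes were all tested, all lower in the fit and none at 0. They took 10.3%, 8.12% and 7.55% of the TMM-scaled total in isotype 1 to 3. In anti-NK1.1 1 to 3 they took 3.28%, 3.35% and 14.3%. The 12 monocyte genes (5 higher, 7 lower, none at 0) summed to 4803 to 5288 CPM with isotype and to 1788, 2188 and 6304 CPM with anti-NK1.1 1 to 3. Anti-NK1.1 3 was the highest library for both lists and for Lgals3. Both lists were low in anti-NK1.1 1 and 2. Lgals3 stood within the isotype range in anti-NK1.1 1, at 415 CPM, and was lowest of all libraries in anti-NK1.1 2, at 221 CPM. Their part in the Lgals3 values was not tested.

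Igf1, the growth factor insulin-like growth factor 1 (chromosome 10, 87858265 to 87937042, plus strand), was scarce. It had 58, 82 and 75 counts in isotype 1 to 3 and 101, 114 and 42 counts in anti-NK1.1 1 to 3, which is 1.62, 2.54 and 1.96 CPM against 3.80, 3.33 and 1.67 CPM. Anti-NK1.1 1 and 2 lay above all isotype libraries, and anti-NK1.1 3 lay within their range. The log2 change was 0.52 ± 0.86 (edgeR adjusted p = 0.888). Its 95% interval of -1.41 to 2.45 was the widest of the set.

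**Figure D3:**
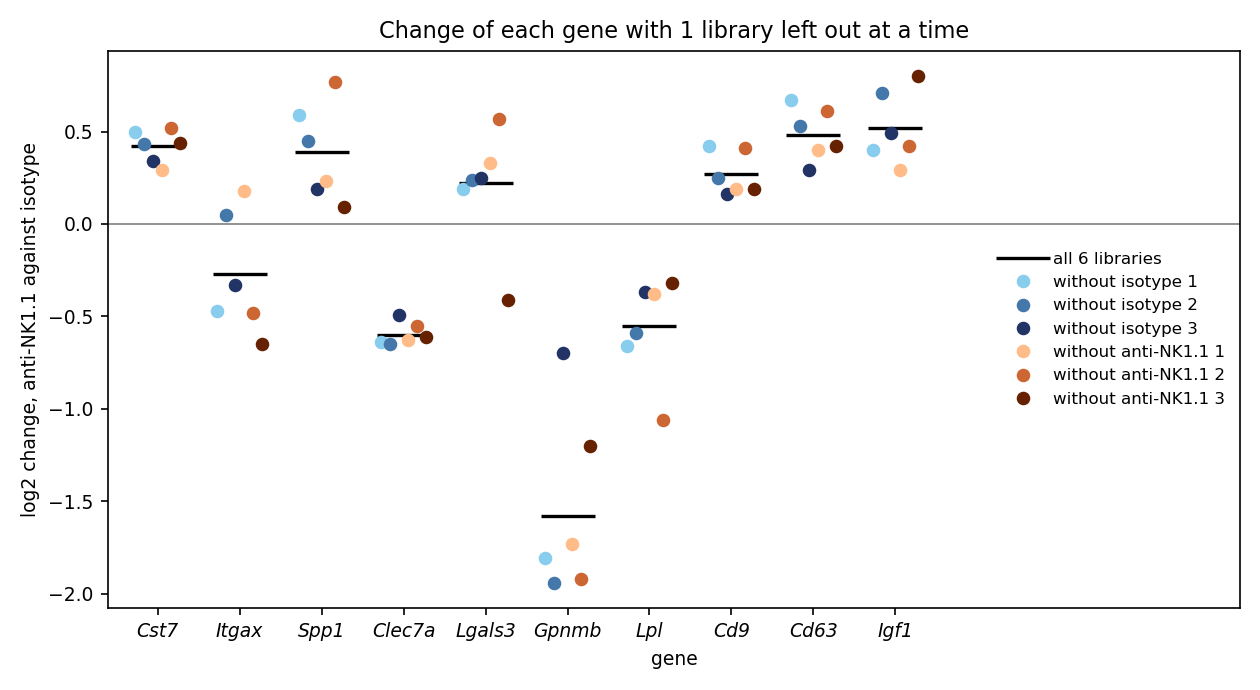
The log2 change of each gene (anti-NK1.1 against isotype) with all 6 libraries (black line) and with 1 library left out at a time (points, blue shades for isotype and orange to brown for anti-NK1.1 libraries). Clec7a stays between -0.65 and -0.49, Gpnmb moves to -0.70 without isotype 3, and Lgals3 changes sign to -0.41 without anti-NK1.1 3.

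The direction of change split by transcript length, with Igf1 as the exception. All 5 genes with a longest transcript under 2000 nt (Cst7, Cd63, Cd9, Lgals3 and Spp1, 986 to 1507 nt) had a positive log2 change, from 0.22 to 0.48 with a median of 0.39. Of the 5 longer genes (Clec7a, Gpnmb, Itgax, Lpl and Igf1, 2277 to 7052 nt), 4 had a negative change and the median was -0.55. The same lean ran through the whole table: 70.2% of the 4003 tested genes under 2000 nt and 43.4% of the 10388 longer ones had a positive change, with medians of 0.23 and -0.11. Each library's deviation from the gene means had a Spearman rho with transcript length across genes of -0.01, 0.03 and 0.33 in isotype 1 to 3, and of -0.15, 0.26 and -0.31 in anti-NK1.1 1 to 3. Genes are not independent replicates, and the split at 2000 nt was set after the values were seen.

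The libraries at the ends of that length trend, and those between them, held the extremes of different genes. Isotype 3, where long transcripts were most represented, had the highest Gpnmb, Lpl and Clec7a and the lowest Cd9, Cd63 and Cst7. Anti-NK1.1 3, where they were least represented, had the highest Cd9, Spp1 and Lgals3 and the lowest Gpnmb and Lpl. Of the libraries between these ends, anti-NK1.1 1 had the highest Cst7, Cd63 and Igf1 and the lowest Itgax, anti-NK1.1 2 the lowest Clec7a, Spp1 and Lgals3, isotype 2 the highest Itgax, and isotype 1 the lowest Igf1. The part of transcript length in these values was not tested beyond the correction that follows. With a correction for length and GC content, the median of the 10 genes was 0.03, that of the shorter genes 0.25 (4 of 5 positive) and that of the longer genes -0.23 (1 of 5 positive). Clec7a then had -0.23, Lpl -0.26 and Lgals3 -0.20, while Gpnmb had -1.49, Spp1 0.57 and Igf1 0.97. Without both anti-NK1.1 1 and 3, 2 of the 5 shorter and 3 of the 5 longer genes had a positive change.

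**Figure D4:**
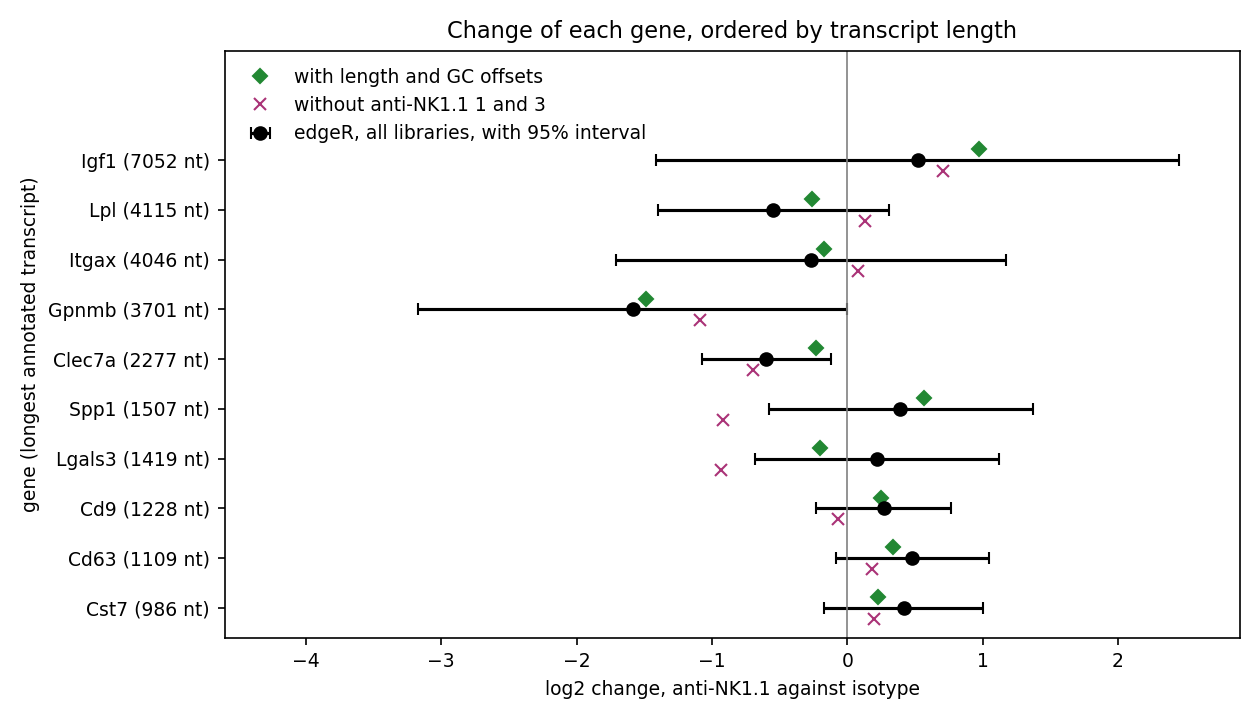
The log2 change of each gene (anti-NK1.1 against isotype, horizontal axis), ordered by the length of its longest annotated transcript. Black points and bars give edgeR's value and 95% interval, green diamonds the value with length and GC offsets, and crosses the value without anti-NK1.1 1 and 3. The 5 shortest genes have black points above 0 and all but Igf1 of the longer ones below 0.

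**Figure D5:**
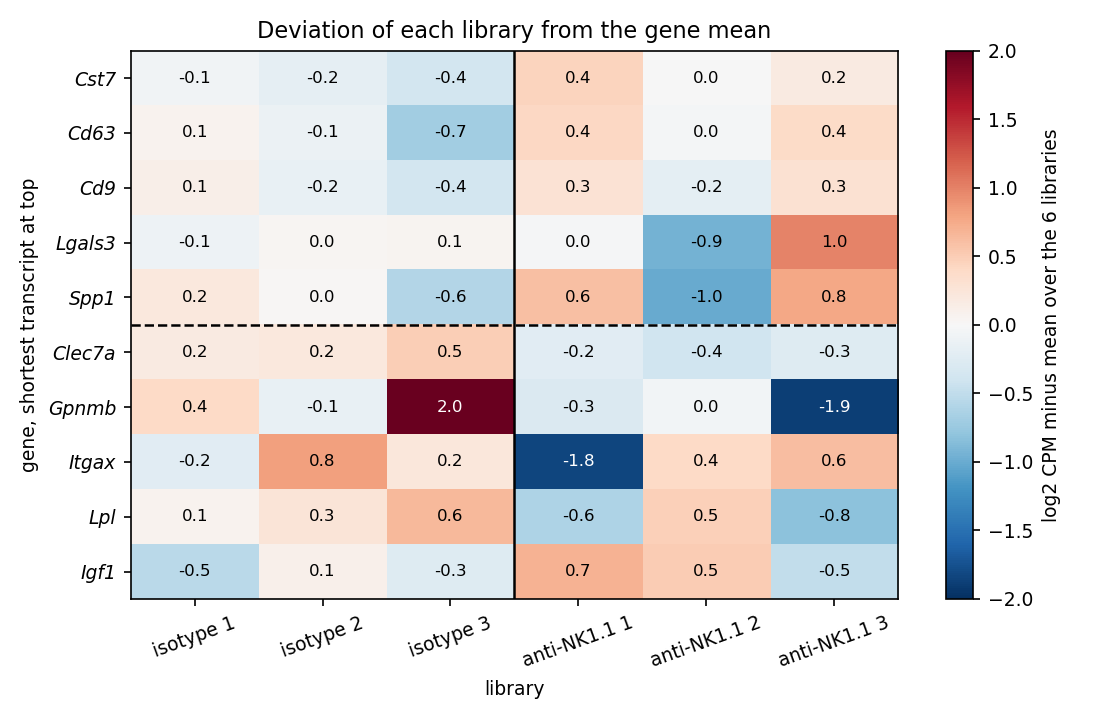
Log2 CPM of each gene minus its mean over the 6 libraries (colour and printed value), with genes from the shortest transcript at the top to the longest, a solid line between isotype and anti-NK1.1 libraries and a dashed line at 2000 nt. In anti-NK1.1 3 the 5 shorter genes stand above their means, and Gpnmb, Lpl, Clec7a and Igf1 below.

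Other genes of the DAM programme, taken from a list of 34 that were all tested, showed a similar balance of signs. Of these, 23 had a positive and 11 a negative log2 change, with a median of 0.24, the median of the 10 genes as well. The median transcript length of the 34 was 1467 nt, but the list also holds longer genes, such as Axl (4265 nt) and Cybb (4752 nt). Of all tested genes under 2000 nt, which match only part of the list in length, 70.2% had a positive change, with a median of 0.23. edgeR called 0 of the 34, as it called 0% of all tested genes. In edgeR, 4 had an unadjusted p under 0.05 (2 higher, 2 lower), against 6.54% of all tested genes. Over the 34, 7 lay higher and 2 lower without overlap of the groups, against 7.73% and 7.59% of all tested genes. DESeq2 called 2, Apoe as higher and Cybb as lower, against 0.574% of the genes it tested. Apoe, the lipid carrier that the set leaves out, had a mean of 1503 ± 354 CPM with isotype and of 3821 ± 616 CPM with anti-NK1.1, and its log2 change was 1.35 ± 0.24 (adjusted p = 0.403, edgeR), or 0.82 with the length and GC correction. The log2 changes of the 10 genes ran from -1.58 to 0.52. Axl, a receptor for apoptotic cells, had 0.96 ± 0.30 and Cybb, the catalytic subunit of the phagocyte oxidase, -1.50 ± 0.41. With the length and GC correction Axl had 0.88 and Cybb -1.12, and without both anti-NK1.1 1 and 3 they had 1.14 and -0.91. The groups did not overlap for Apoe, Axl or Cybb. Trem2 averaged 1065 ± 304 and 1430 ± 485 CPM, and its log2 change was 0.43 ± 0.31 (adjusted p = 0.769, edgeR). That of Trem2 turned to -0.09 with the length and GC correction and to -0.18 without both anti-NK1.1 1 and 3.

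Partners and regulators of the 10 genes were examined from a list of 25, all tested. Of these, 9 had a positive and 16 a negative log2 change, with a median of -0.17, where 50.9% of all tested genes had a positive change. edgeR and DESeq2 called 0 (0% and 0.574% of the genes they tested), while 3 had an unadjusted p under 0.05 (6.54% of all tested genes). Itgam, an integrin alpha chain that pairs with the same beta chain as Itgax, averaged 379 ± 108 and 177 ± 103 CPM (log2 change -1.10 ± 0.39). Cd44, a receptor for osteopontin, averaged 182 ± 32.7 and 97.9 ± 32.5 CPM (log2 change -0.89 ± 0.30). With the length and GC correction Cd44 had -0.51, and without both anti-NK1.1 1 and 3 Itgam had -0.35. Neutrophils and monocytes also express Itgam and Cd44. Neutrophil genes had 7.55% to 10.3% of the TMM-scaled total with isotype. They had 3.28% and 3.35% in anti-NK1.1 1 and 2 and 14.3% in anti-NK1.1 3. Monocyte genes had 4803 to 5288 CPM with isotype, 1788 and 2188 CPM in anti-NK1.1 1 and 2 and 6304 CPM in anti-NK1.1 3. In anti-NK1.1 1 to 3, Itgam had 113, 296 and 123 CPM and Cd44 60.4, 115 and 118 CPM. The part of neutrophils and monocytes in these values was not tested. Igfbp5, a binding protein of insulin-like growth factors, averaged 4.91 ± 1.07 and 16.3 ± 7.59 CPM (log2 change 1.73 ± 0.50). That of Igfbp5 was 1.78 with the length and GC correction and 2.36 without both anti-NK1.1 1 and 3. The groups did not overlap for Itgam, Cd44 or Igfbp5, and each had an adjusted p of 0.727 in edgeR. These 3 were named for having the smallest p of the 25. Over the 25, 2 lay higher and 2 lower without overlap, against 7.73% and 7.59% of all tested genes. The partners were long transcripts, with a median of 3831 nt, where the whole tested table had 3028 nt.

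Relatives of Cd9, Cd63 and Lgals3 mostly had positive changes. Of 12 other tetraspanins and galectins, all tested, 10 had a positive and 2 a negative log2 change, with a median of 0.25. edgeR and DESeq2 called 0 (0% and 0.574% of the genes they tested), while 2 had an unadjusted p under 0.05 (6.54% of all tested genes). Cd81, a tetraspanin, averaged 2655 ± 254 and 3843 ± 746 CPM (log2 change 0.53 ± 0.21). Lgals3bp, a glycoprotein that binds galectin-3, averaged 122 ± 5.24 and 179 ± 20.4 CPM (0.56 ± 0.21), and the tetraspanin Tspan4 had 0.58 ± 0.27. With the length and GC correction Cd81 had 0.33, Lgals3bp 0.30 and Tspan4 0.09, and without both anti-NK1.1 1 and 3 they had 0.19, 0.37 and 0.11. Their median transcript length was 1783 nt.

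Resting genes, known to be lowered in the DAM state, had no shared direction either. Of the 16 identity and homeostatic genes, 6 had a positive and 10 a negative log2 change, with a median of -0.19. edgeR and DESeq2 called 0 (0% and 0.574% of the genes they tested), while 2 had an unadjusted p under 0.05 (6.54% of all tested genes). The purine receptors P2ry12 and P2ry13 had -0.58 ± 0.23 and -0.59 ± 0.26, and Tgfbr1, a receptor chain for transforming growth factor beta, had -0.98 ± 0.44. Without both anti-NK1.1 1 and 3 the changes of P2ry12, P2ry13 and Tgfbr1 were -0.15, -0.12 and -0.12, and with the length and GC correction they were -0.22, -0.43 and -0.63. Tmem119 had 0.38 ± 0.24, which was -0.01 with that correction.

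The neutrophil, monocyte, oligodendrocyte, dendritic cell and NK cell lists are given above, the oligodendrocyte one with up to 915 CPM. In the lists that follow, markers of other cell types that could enter the sort summed to at most 663 CPM. The 12 border macrophage genes (9 higher, 3 lower) summed to 287 to 381 CPM with isotype and 383 to 425 CPM with anti-NK1.1. Neuron genes (8 of 8 higher) summed to 47.9 to 163 and 216 to 663 CPM, and T and B cell genes (8 higher and 1 lower of 9 tested) to 62.7 to 102 and 116 to 158 CPM. The sums were 157 to 224 and 197 to 337 CPM for astrocytes (5 higher, 3 lower), and 50.0 to 98.1 and 96.9 to 209 CPM for endothelial and mural cells (7 higher, 2 lower). Basophil and mast cell genes (6 of 6 tested lower) summed to 287 to 331 and 105 to 371 CPM, with Ms4a2 at 0 in the anti-NK1.1 group. No other marker of these lists was at 0 throughout a group, and their part in the values of the 10 genes was not tested.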

How the data were processed

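RNA-seq counts of 6 libraries (3 isotype, 3 anti-NK1.1) were used. Per the labels' protocols, RNA was extracted with Trizol-LS, cDNA made with SMART-seq v4, libraries with Nextera XT, and single-end reads of 75 bp came from a NextSeq 500. Neither kit marks molecules or strand, so overlapping antisense genes cannot be separated. Per the submitters' processing notes reads were handled with STAR 2.5.3a and Cufflinks 2.0 among other tools, on build mm10. For the read counter and its annotation, the name is not given in the sources used here. By name, the deposited table is normalized, but its values are whole read counts per gene with different totals. It was used as deposited, without 26 rows whose symbol is a calendar date and without 2 rows of read totals (no feature: 53.3% to 57.4% of reads, ambiguous: 0.29% to 0.37%).

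After filterByExpr and TMM scaling, edgeR 4.0.16 (R 4.3.3) compared the groups with its quasi-likelihood F-test, two-sided and with no further covariate. Its p-values were adjusted by Benjamini-Hochberg over every gene tested, and called under 0.05. CPM and the percentages taken by cell type genes use TMM-scaled totals, not raw ones (scaling factors 0.863 to 1.093). At that scale 3 counts correspond to 0.0784 to 0.120 CPM. The SE of a log2 change is its size divided by the square root of F. The script was tested on simulated data. Alternatives used DESeq2 1.42.0, limma 3.58.1 and, for smooth length and GC offsets per library, mgcv 1.9.3 with the longest GENCODE transcript (99.1% of tested genes matched). Coordinates are GENCODE's for GRCm38 (mm10), by symbol. Promoters are RefSeq's. The members and lists were chosen with earlier results of these data known. Named beside the 10 genes are Klrb1c, P2ry12, Tmem119, Apoe, Trem2 and the 3 genes of smallest p in each of 4 companion lists (homeostatic, other DAM, partners, tetraspanins and galectins). No permutation test was used.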

Additional observations from a re-analysis of the deposited data

How the results depend on the processing

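Across 16 alternatives no member was called. The count of members with a positive change was 5 to 7, and 5 of the 10 members (Cst7, Clec7a, Gpnmb, Cd63 and Igf1) kept their direction wherever they were tested. The number of genes called over the table was 0 with edgeR, 83 with DESeq2 (48 higher, 35 lower) and 4 with limma-voom. With 1 library left out it was 0 to 129, the 129 (12 higher, 117 lower) without anti-NK1.1 2. The members' median was 0.24. It was 0.03 with length and GC offsets, -0.01 with those offsets and the replicate block, 0.01 without both anti-NK1.1 1 and 3, and -0.12 to 0.42 with 1 library left out, lowest without anti-NK1.1 3 and highest without anti-NK1.1 2. The cause was not tested. Signs reversed for Lgals3 (-0.20 with the offsets, -0.32 with offsets and block, -0.41 without anti-NK1.1 3, -0.93 without both anti-NK1.1 1 and 3) and Itgax (0.05 without isotype 2, 0.18 without anti-NK1.1 1, 0.08 without both). Without both, signs also reversed for Spp1 (-0.92), Lpl (0.13), Cd9 (-0.07) and Trem2 (-0.18). With the offsets, Trem2 had -0.09 with and without the block, and Tmem119 -0.01 and, with the block, -0.00. With the replicate block alone the median was 0.13 and 0 members were called. In the labels, same-numbered libraries share only a number (correlations of their deviations 0.05, 0.03 and -0.00). Whether they also share a batch was not tested. With 1 library left out, Itgax ranged from -0.65 to 0.18 and Lgals3 from -0.41 to 0.57. Igf1 was not tested with a mean CPM of at least 5. Without both anti-NK1.1 1 and 3, the lone anti-NK1.1 library is assumed to vary like the isotype libraries. Depth was lowest for Igf1, with 42 to 114 counts a library.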
